A study of Mus musculus with 12 samples.

Results

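The transcription factor p53 and 38 genes described as its direct targets were followed across a mouse tumour cell experiment. The set of 39 genes was taken by symbol from a list of p53 targets in growth arrest, cell death, DNA repair and metabolism. All 39 were among the 54347 genes of the count table, and all 39 were among the 15319 genes with enough reads to be tested. RNA came from PYMT cells grown in matrigel. PYMT is the usual name of a mouse mammary carcinoma model in which the polyoma middle T oncogene is expressed. Cells received BMP4 and TGFB2 together (BMP4-TGFB2), TGFB2, BMP4 or no ligand (NT), each ligand at 5 ng/mL for 3 days, and were harvested 2 days after the medium was changed. Each group had 3 libraries, called biological replicates in the labels, which do not say what separated them. The p-values therefore cover the spread between these libraries, whatever it comes from.

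In mammalian cells p53 is held low by the ubiquitin ligase Mdm2, itself a p53 target, so the pathway contains its own brake. When p53 accumulates it binds DNA as a tetramer and raises genes that stop the cell cycle, repair DNA, change metabolism or start apoptosis. Both TGFB2 and BMP4 belong to the TGFβ superfamily of secreted signals, and their receptors act on different SMAD proteins. In epithelial cells TGFβ is known as a cytostatic signal, and some arrest genes, Cdkn1a and Gadd45a among them, are known targets of SMADs as well as of p53.

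The libraries held 28543100 to 42167800 counts each. Mitochondrial genes took 1.77 to 2.91% of counts in BMP4-TGFB2 libraries, 1.84 to 2.95% in TGFB2, 1.4 to 1.76% in BMP4 and 1.14 to 1.95% in NT, with replicate 1 highest in each group, and the part of this share in the results was not tested. The summed level of 6 epithelial markers was 3770 to 4510 TPM (a level corrected for gene length that sums to the same total in each library) in every library. Summed levels over 6 fibroblast markers were 4.08 to 12.5 TPM in BMP4-TGFB2 libraries, 6.84 to 11.9 TPM in TGFB2, 2.04 to 11.5 TPM in BMP4 and 1.86 to 7.11 TPM in NT. With TGFB2 4 of these 6 rose, where 11.3% of all tested genes rose. The 7 leukocyte markers summed to 3.12 to 3.64 TPM in BMP4-TGFB2, 2.52 to 3.17 TPM in TGFB2, 0.48 to 3.17 TPM in BMP4 and 0.184 to 0.588 TPM in NT libraries. Of their 3 tested members 2 rose with TGFB2 (again beside 11.3% of all tested genes), while the T-cell gene Cd3e lay between 0 and 0.148 TPM in every library. The 4 endothelial markers summed to 0.735 to 1.49 TPM over all libraries. Whether these transcripts came from other cell types or from the PYMT cells was not tested, nor was their part in the results below. A changed number of cells of a type cannot be told apart from changed RNA per cell. Replicate 1 of BMP4-TGFB2 and replicate 1 of TGFB2 stood apart. Their mean log2(CPM + 1) over 15 mitotic genes lay 3.60 and 2.83 units under the NT mean, and the other 10 libraries lay between -0.76 and 0.28 (CPM is a gene's count divided by the scaled library total, times 1000000). Each comparison is therefore also given without replicate 1 in every group, and so are the values of some single genes.

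Consensus p53 binding letters were searched in the promoter windows of these genes, since p53 is the regulator for which they were listed. Windows of 300 bases, from 250 before to 50 after the RefSeq start (GRCm38.p6), were at hand for 32 of the 39 genes. The 10-base p53 consensus, which reads the same on both strands, was found for 11 of those 32 genes (34.4%). Genes with several annotated starts, such as Aen, had several windows, and a match in any of them was taken. It was found in 928 of the 11043 tested genes with a window (8.4%). No window of these genes held a pair of such elements with a spacer of up to 13 bases, the full p53 site, and 6 of the 11043 did (0.0543%). The windows that follow are those of the 5 genes with a match that rose with TGFB2, then of Sesn1, which fell with both ligands, and of Trp53 itself. Capitals mark the consensus match.
Mdm2 (chr10:117710905-117710974, minus strand): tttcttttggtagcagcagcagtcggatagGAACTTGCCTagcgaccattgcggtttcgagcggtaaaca
Ccng1 (chr11:40755432-40755501, minus strand): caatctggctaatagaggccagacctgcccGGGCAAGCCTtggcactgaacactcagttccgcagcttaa
Gadd45a (chr6:67037408-67037477, minus strand): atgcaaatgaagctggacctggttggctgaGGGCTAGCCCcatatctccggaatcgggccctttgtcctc
Ei24 (chr9:36797335-36797374, minus strand): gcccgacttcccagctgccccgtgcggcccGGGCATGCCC
Polk (chr13:96519379-96519437, minus strand): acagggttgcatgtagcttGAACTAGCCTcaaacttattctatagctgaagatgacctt
Sesn1 (chr10:41887236-41887305, plus strand): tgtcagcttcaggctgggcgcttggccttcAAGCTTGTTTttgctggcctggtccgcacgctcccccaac
Trp53 (chr11:69580254-69580323, plus strand): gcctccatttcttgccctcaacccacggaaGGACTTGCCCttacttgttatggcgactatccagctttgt
In these 7 windows the matches began between 231 bases (Polk) and 10 bases (Ei24) upstream of the RefSeq start of that window. The starts used for Polk and Sesn1 lay well inside the annotated genes. Polk spans 96480690 to 96542579 on chromosome 13, and Sesn1 41809935 to 41908424 on chromosome 10. The other matches were in Aen, Bax, Ckap2 and Gtse1. A match is a string of letters and not a bound site. With TGFB2 5 of the 11 genes with a match rose, with a median log2 fold change over all 11 of 0.47. Among the 21 with a window and no match 5 rose and 1 fell, with a median of 0.45. Of the 7 genes without a window 2 rose, with a median of 0.53. Over all tested genes 11.3% rose and 11.1% fell.

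Levels of the 39 genes spanned a wide range. On the TPM scale, averaged over the 12 libraries, Dcxr, a sugar reductase, was highest at 712 TPM, and the death effector Bax followed at 550 TPM. Phlda3 averaged 460 TPM, Ccng1 236 TPM, Mdm2 206 TPM and Trp53 203 TPM. Dram1, at 2.80 TPM, and Sesn1, at 3.06 TPM, were the lowest. Ddb2, at 6.26 TPM, is uncertain, because its exons overlap those of Acp2 on the opposite strand and the library type is named as unstranded. Acp2 averaged 50.5 CPM and Ddb2 5.97 CPM.

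**Figure D1:**
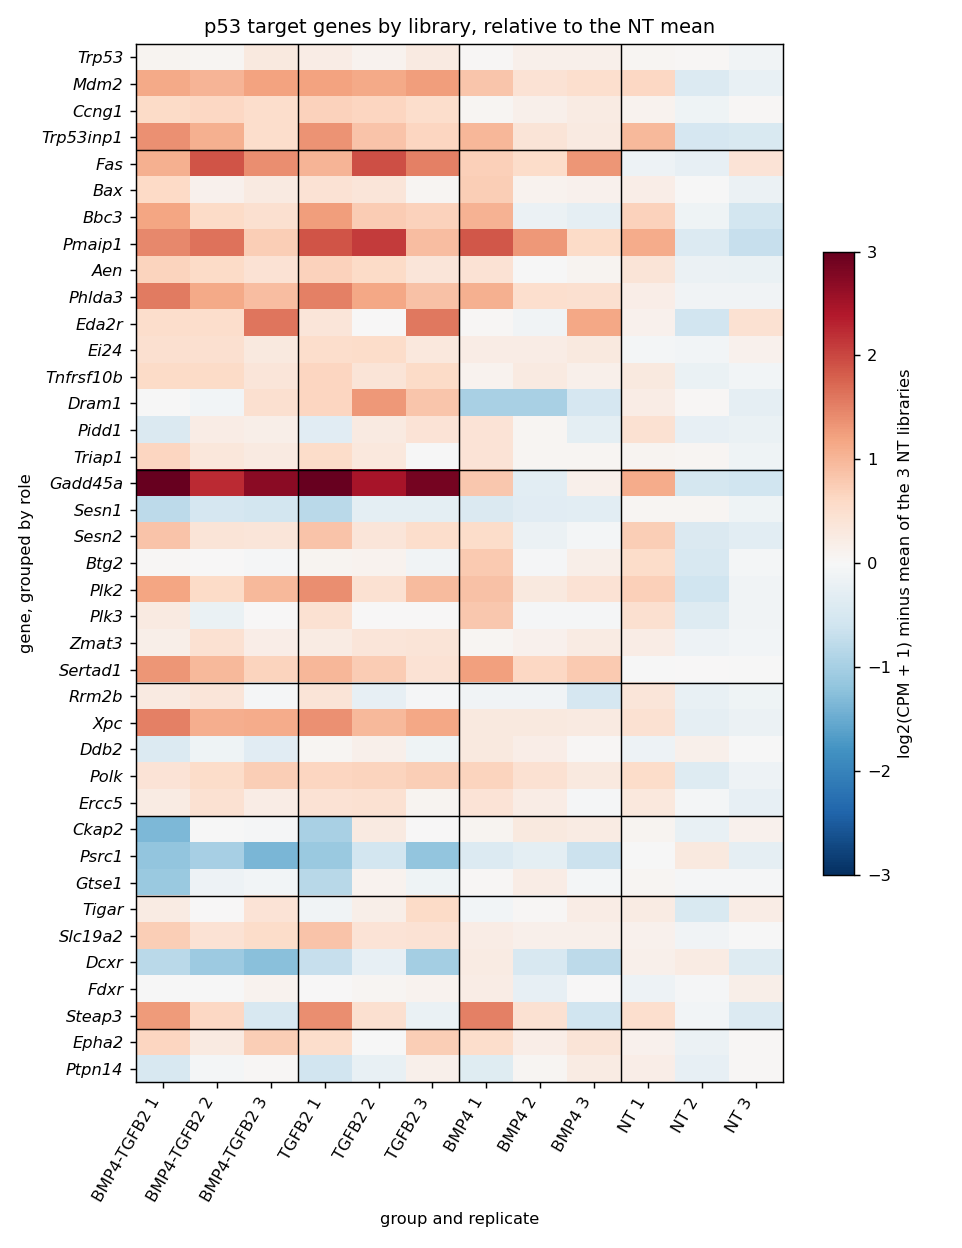
Level of each of the 39 p53 target genes (rows, grouped by role) in each of the 12 libraries (columns), as log2(CPM + 1) minus the mean of the 3 NT libraries, with the colour scale held at -3 and 3. Mdm2, Fas, Phlda3, Gadd45a and Xpc are above the NT mean in all 6 libraries with TGFB2, and NT replicate 1 stands above the other NT libraries for many genes.

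TGFB2 raised a subset of the p53 targets. Against NT, 12 of the 39 genes rose and 1 fell (adjusted p under 0.05), where 22.4% of all tested genes passed, 11.3% rising and 11.1% falling. The genes that rose were Mdm2, Ccng1, Fas, Phlda3, Ei24, Tnfrsf10b, Dram1, Gadd45a, Sertad1, Xpc, Polk and Slc19a2, and Psrc1 fell. The log2 fold change was positive for 32 of the 39, with a median of 0.47, against 0.01 over all tested genes. In 15 genes every TGFB2 library lay above every NT library, and in 2 every one lay below (19.4% and 19.2% of all tested genes). Same-numbered libraries deviated together here, and with the replicate number as a block 22 of the 39 rose and 3 fell, where 37.8% of all genes passed. Without replicate 1 in every group 19 rose and none of the 39 fell, where 26.4% of all genes passed. Of the single libraries, NT replicates 1 and 2 moved the count by over 1.5 times. It was 20 without NT replicate 1 (19 up, 1 down) and 7 without NT replicate 2 (6 up, 1 down), where 12.1% and 6.48% of all genes rose and 11.8% and 6.91% fell.

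Both ligands together raised 11 of the 39 genes and lowered 3. Against NT 26.2% of all tested genes passed in BMP4-TGFB2 cells, 13.3% rising and 12.9% falling. The rises were Mdm2, Ccng1, Fas, Aen, Phlda3, Ei24, Tnfrsf10b, Gadd45a, Sertad1, Xpc and Slc19a2, and the falls Sesn1, Psrc1 and Dcxr. The median log2 fold change of the 39 was 0.44, against 0.01 over all tested genes. In 14 genes the BMP4-TGFB2 libraries lay wholly above the NT libraries and in 4 wholly below (20.8% and 20.5% of all tested genes). Without replicate 1 in every group 17 rose and 2 fell, where 30.7% of all genes passed. Leaving out NT replicate 2 alone gave 9 calls (8 up, 1 down), where 16.7% of all genes passed, 8.02% rising and 8.63% falling.

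BMP4 alone raised 1 of the 39 genes against NT, Sertad1, and lowered none, where 5.45% of all tested genes passed, 3.21% rising and 2.25% falling. The median log2 fold change was 0.19, against 0.00 over all tested genes. An unadjusted p under 0.05 was seen in 7 of the 39 and in 2870 of the 15319 tested genes, a similar share. DESeq2 called 4 of the 39, 3 up (Sertad1, Fas, Phlda3) and 1 down (Dram1), where it called 10.2% of all tested genes. Same-numbered libraries deviated together in this comparison too. With the replicate block 6 rose (Epha2, Sertad1, Plk2, Pmaip1, Fas and Phlda3) and 2 fell (Dram1 and Psrc1), where 15.4% of all genes passed, 8.6% rising and 6.78% falling. Without replicate 1 in every group 5 rose (Sertad1, Mdm2, Polk, Trp53inp1 and Phlda3), where 4.41% of all genes passed, 2.65% rising. Leaving out NT replicate 2, NT replicate 3, BMP4 replicate 1 or BMP4 replicate 3 gave 0 calls among the 39, where 1.91%, 4.09%, 3.41% and 3.06% of all genes passed. Leaving out NT replicate 1 gave 3 (Mdm2, Polk and Pmaip1), where 4.94% of all genes passed. The comparisons with NT share the same 3 NT libraries, so their values are set side by side and not counted as repeats of each other.

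**Figure D2:**
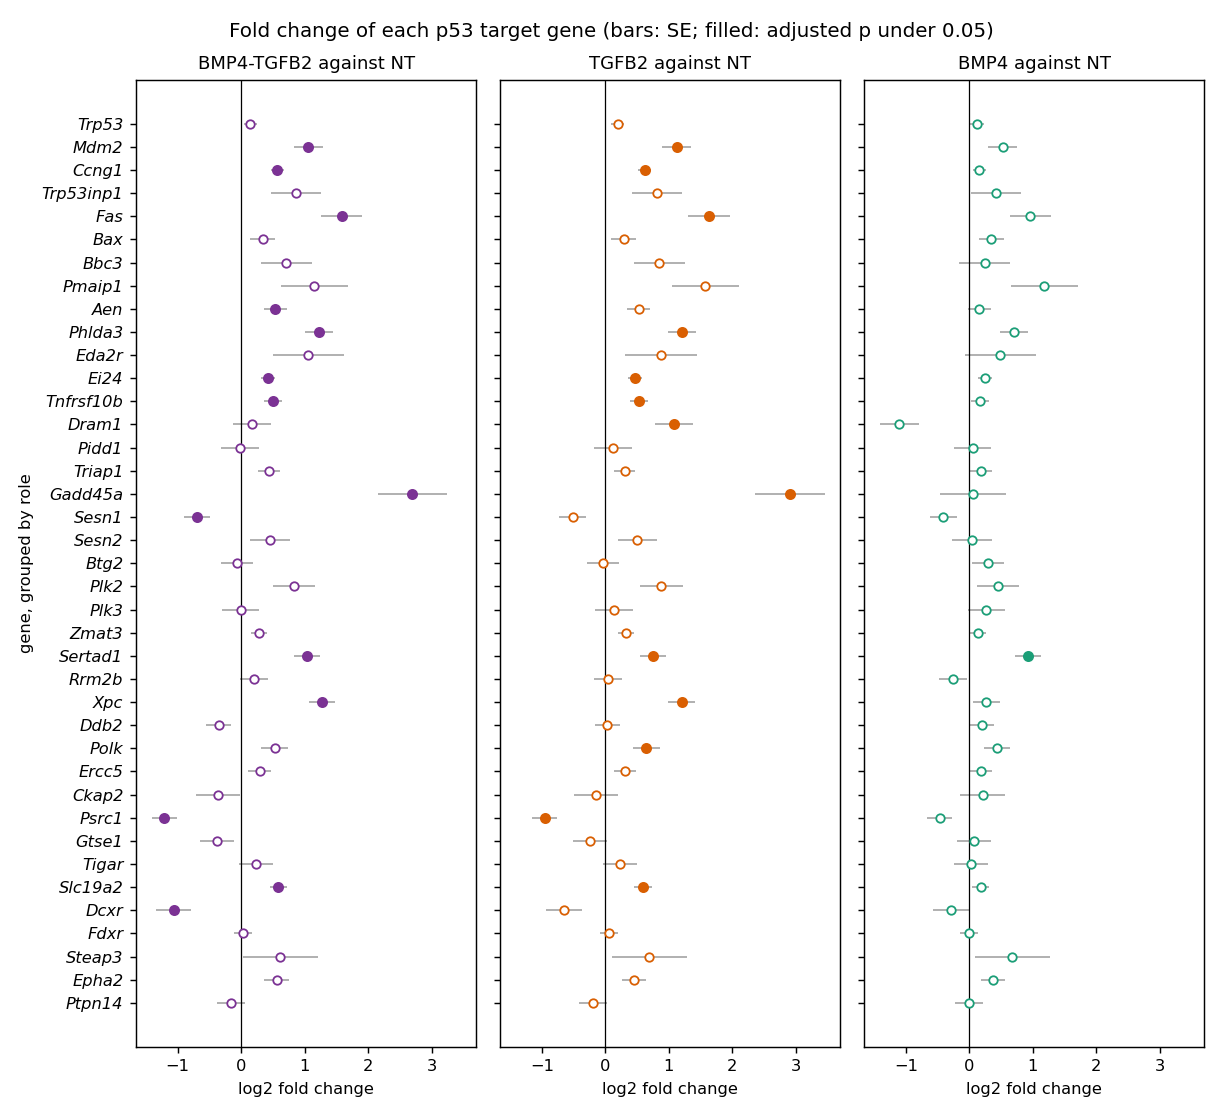
Log2 fold change of each of the 39 genes against NT (points) with its SE (bars), in BMP4-TGFB2, TGFB2 and BMP4 cells, filled where the adjusted p was under 0.05. Gadd45a stands farthest right with BMP4-TGFB2 and with TGFB2, and Dram1 lies right of 0 with TGFB2 and left of 0 with BMP4.

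Among the core and feedback genes, Mdm2 and Ccng1 rose with TGFB2 and Trp53 did not pass the test. Trp53 (ENSMUSG00000059552.13, chromosome 11, 69580359 to 69591873, GRCm38), which encodes p53, had 214, 209 and 246 CPM in BMP4-TGFB2 libraries, 234, 217 and 242 CPM in TGFB2, 208, 224 and 225 CPM in BMP4, and 210, 207 and 188 CPM in NT. Every TGFB2 library was above every NT library by a small margin, and the log2 fold change with TGFB2 was 0.20 ± 0.10 (SE, n = 3 per group; adjusted p = 0.206 in edgeR's quasi-likelihood test, as for all adjusted p-values here). Mdm2 (ENSMUSG00000020184.15, chromosome 10, 117688875 to 117710758) had 403, 372 and 423 CPM in BMP4-TGFB2 libraries, 422, 401 and 433 CPM in TGFB2, 323, 244 and 258 CPM in BMP4, and 281, 137 and 157 CPM in NT. All 6 libraries with TGFB2 were above every BMP4 and every NT library, and NT replicate 1 reached into the range of the BMP4 libraries. The log2 fold changes against NT were 1.06 ± 0.23 with both ligands (adjusted p = 0.00584), 1.13 ± 0.23 with TGFB2 (0.00494) and 0.52 ± 0.23 with BMP4 (0.239). Without NT replicate 1 the BMP4 value of Mdm2 passed at 0.91 (adjusted p = 0.00778).

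Ccng1 (ENSMUSG00000020326.7, chromosome 11, 40748552 to 40755311), cyclin G1, brings a phosphatase to Mdm2. It had 618, 637 and 595 CPM in BMP4-TGFB2 libraries, 669, 646 and 599 CPM in TGFB2, 435, 464 and 494 CPM in BMP4, and 445, 381 and 422 CPM in NT. The libraries with TGFB2 lay above the others with a clear gap, and the BMP4 and NT ranges overlapped. The log2 fold changes against NT were 0.57 ± 0.10 with both ligands (adjusted p = 0.00214), 0.62 ± 0.10 with TGFB2 (0.00158) and 0.16 ± 0.10 with BMP4 (0.463). Trp53inp1, a nuclear protein that p53 induces and that promotes cell death, ranged from 158 to 286 CPM in BMP4-TGFB2, from 173 to 280 CPM in TGFB2, from 133 to 219 CPM in BMP4 and from 76.9 to 216 CPM in NT libraries. Replicate 1 was its highest library in every group. Its value with TGFB2, 0.81 ± 0.39, missed the threshold (adjusted p = 0.165) and passed with the replicate block (0.0038) and without replicate 1 in every group (1.26; 0.00311).

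Of the 12 cell death genes 5 rose with TGFB2 (41.7%), 5 rose with both ligands (41.7%) and none passed with BMP4. Over all tested genes 11.3% and 13.3% rose, and 5.45% passed with BMP4. With BMP4 4 of the 12 had an unadjusted p under 0.05 in edgeR, as had 2870 of the 15319 tested genes. Fas (ENSMUSG00000024778.13, chromosome 19, 34290666 to 34327772), a death receptor, had 16.4, 29.9 and 21 CPM in BMP4-TGFB2 libraries, 16, 31 and 22.7 CPM in TGFB2, 12.7, 11.3 and 19.7 CPM in BMP4, and 6.45, 6.03 and 10 CPM in NT. Every treated library was above every NT library. The log2 fold changes against NT were 1.58 ± 0.33 with both ligands (adjusted p = 0.00449), 1.63 ± 0.33 with TGFB2 (0.00454) and 0.96 ± 0.32 with BMP4 (0.122; 0.0365 with the replicate block). Without replicate 1 in every group the BMP4 value of Fas was 0.94 (adjusted p = 0.175). Phlda3 (ENSMUSG00000041801.5, chromosome 1, 135766119 to 135769136), a repressor of the survival kinase Akt, had 627, 470 and 408 CPM in BMP4-TGFB2 libraries, 615, 477 and 394 CPM in TGFB2, 447, 304 and 297 CPM in BMP4, and 247, 200 and 197 CPM in NT. Replicate 1 led in each group, and NT was the lowest group without overlap. The log2 fold changes were 1.22 ± 0.22 with both ligands (adjusted p = 0.00211), 1.20 ± 0.22 with TGFB2 (0.00282) and 0.70 ± 0.22 with BMP4 (0.0975; 0.0011 with the replicate block). Without replicate 1 in every group the BMP4 value of Phlda3 was 0.59 (adjusted p = 0.0482).

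Smaller rises were seen in Ei24, an endoplasmic reticulum protein linked to autophagy, and Tnfrsf10b, a receptor for the death ligand TRAIL. Ei24 had 242, 244 and 212 CPM in BMP4-TGFB2 libraries, 249, 254 and 215 CPM in TGFB2, 202, 200 and 213 CPM in BMP4, and 167, 163 and 190 CPM in NT. Every treated library was above every NT library, by the smallest margin in BMP4. With TGFB2 it rose by 0.47 ± 0.11 on the log2 scale (adjusted p = 0.0117; 0.0546 without NT replicate 2), and with both ligands by 0.42 ± 0.11 (0.0168; 0.0557 to 0.0695 without NT replicate 2 or BMP4-TGFB2 replicate 1 or 2). Both Ei24 calls were also lost without replicate 1 in every group (0.0574 with TGFB2 and 0.0791 with both ligands). Tnfrsf10b had 84.7, 85.9 and 73.8 CPM in BMP4-TGFB2 libraries, 88.9, 74.7 and 85.7 CPM in TGFB2, 61.6, 69.2 and 63.2 CPM in BMP4, and 70.1, 49.1 and 53.5 CPM in NT. NT replicate 1 lay above the BMP4 libraries, and all libraries with TGFB2 lay above it. It rose by 0.53 ± 0.14 with TGFB2 (adjusted p = 0.0201) and by 0.50 ± 0.14 with both ligands (0.0228). The Tnfrsf10b call was lost on omitting any of NT replicates 2 and 3 and TGFB2 replicates 1 and 3 (adjusted p 0.0584 to 0.0871), and with both ligands without NT replicate 2 or 3 or BMP4-TGFB2 replicate 1 or 2 (0.0703 to 0.0966).

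Dram1 passed with TGFB2 and Aen with both ligands. Dram1 (ENSMUSG00000020057.2, chromosome 10, 88322804 to 88379080), a lysosomal membrane protein that promotes autophagy, had 4.16, 3.87 and 6.18 CPM in BMP4-TGFB2 libraries, 7.02, 11.7 and 8.15 CPM in TGFB2, 1.62, 1.64 and 2.63 CPM in BMP4, and 5.07, 4.31 and 3.30 CPM in NT. The TGFB2 libraries were the highest and the BMP4 libraries the lowest, without overlap with the other groups, and the BMP4-TGFB2 libraries overlapped NT. With TGFB2 it rose by 1.08 ± 0.30 (adjusted p = 0.0244), a call lost on omitting any of NT replicates 2 and 3 and TGFB2 replicate 2 (0.0734 to 0.0963). With BMP4 its value was -1.10 ± 0.31 (0.0625; 0.033 with the replicate block and 0.242 without replicate 1 in every group), and with both ligands 0.16 ± 0.30 (0.73). Aen, a nuclease that enhances apoptosis, had 158, 147 and 134 CPM in BMP4-TGFB2 libraries, 160, 148 and 127 CPM in TGFB2, 133, 98.4 and 105 CPM in BMP4, and 130, 86.9 and 85.4 CPM in NT. The lowest BMP4-TGFB2 library was just above the highest NT library and the lowest TGFB2 library just under it. Aen rose with both ligands by 0.54 ± 0.18 (adjusted p = 0.0468), against 0.52 ± 0.18 with TGFB2 (0.0577; 0.0028 with the replicate block and 0.00574 without replicate 1 in every group). The BMP4-TGFB2 call of Aen was lost on leaving out any single library except NT replicate 1 and BMP4 replicate 1 (0.0508 to 0.166).

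The other 6 death genes passed in no comparison with NT with every library. Pmaip1 (NOXA) and Bbc3 (PUMA) encode BH3-only activators of apoptosis. Pmaip1 had 26.4, 30.4 and 16.1 CPM in BMP4-TGFB2 libraries, 36.7, 42.8 and 18.4 CPM in TGFB2, 35.8, 24.2 and 14.2 CPM in BMP4, and 20.8, 6.69 and 5.25 CPM in NT. NT replicate 1 reached above the lowest library of every treated group. Its log2 fold change with TGFB2 was 1.58 ± 0.53 (adjusted p = 0.0529; 0.0017 with the replicate block). Bbc3 was at 0.85 ± 0.40 (0.156; 0.0012 with the block), and every TGFB2 library was above every NT library. Bax, which opens the mitochondrial outer membrane, was at 0.29 ± 0.20 (0.328). Triap1, an inhibitor of apoptosis in mitochondria, was at 0.30 ± 0.17 (0.231; 0.0408 with the block), and Eda2r, of the TNF receptor family, at 0.88 ± 0.56 (0.293; 0.0206 with the block). Pidd1, which activates caspase-2, was at 0.12 ± 0.30 (0.819). With replicate 1 left out of every group, Pidd1 was at 0.62 with TGFB2 (adjusted p = 0.0332), Pmaip1 at 2.36 (0.012) and Bbc3 at 1.09 (0.00331), and all 3 passed. Triap1 (0.20; 0.316), Eda2r (1.14; 0.301) and Bax (0.33; 0.118) did not pass with TGFB2 in that setting.

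**Figure D3:**
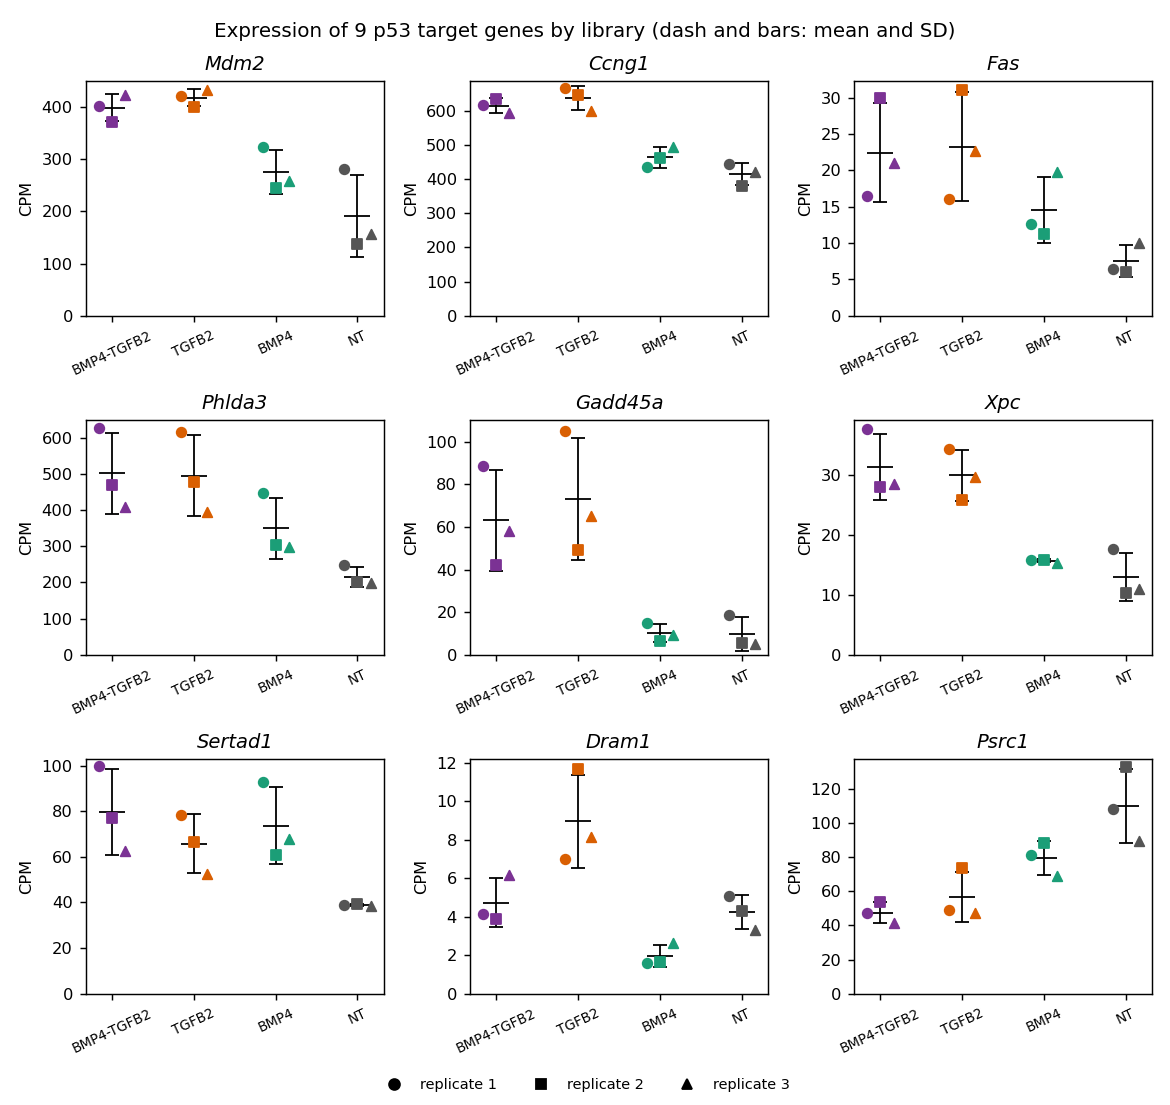
Expression of 9 p53 target genes in CPM (vertical axes, from 0) in each library of the 4 groups, with the replicate number as the marker and the group mean and SD as dash and bars. The 6 libraries with TGFB2 lie above all BMP4 and NT libraries for Mdm2, Ccng1, Gadd45a and Xpc, all 9 treated libraries lie above NT for Fas, Phlda3 and Sertad1, and Psrc1 is highest in NT.

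Of the 8 arrest and growth control genes 2 rose with TGFB2, and with both ligands 2 rose and 1 fell. These calls were 25% and 37.5% of the 8, where 22.4% and 26.2% of all tested genes passed. Gadd45a (ENSMUSG00000036390.8, chromosome 6, 67035096 to 67037457), a stress protein that halts cells in G2 and feeds p38 and JNK signalling, had the largest log2 fold change of the 39 with TGFB2 and with both ligands. It had 88.8, 42.2 and 58.2 CPM in BMP4-TGFB2 libraries, 105, 49.4 and 65.2 CPM in TGFB2, 14.9, 6.35 and 9.06 CPM in BMP4, and 18.8, 5.35 and 5.04 CPM in NT. All libraries with TGFB2 were above all others, the BMP4 and NT ranges overlapped, and replicate 1 was highest in each group. Against NT it stood at 2.69 ± 0.54 with both ligands (adjusted p = 0.00393), 2.91 ± 0.55 with TGFB2 (0.00314) and 0.06 ± 0.52 with BMP4 (0.977).

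Sertad1 (ENSMUSG00000008384.8, chromosome 7, 27486910 to 27490316), a cofactor of cyclin D-CDK4 and E2F, rose with each treatment. It had 99.7, 77.2 and 62.4 CPM in BMP4-TGFB2 libraries, 78.4, 66.4 and 52.6 CPM in TGFB2, 92.8, 60.7 and 67.7 CPM in BMP4, and 38.8, 39.3 and 38.7 CPM in NT. The NT libraries were nearly equal and lay under every treated library. Set against NT, the log2 values were 1.04 ± 0.21 with both ligands (adjusted p = 0.00372), 0.76 ± 0.21 with TGFB2 (0.022) and 0.92 ± 0.21 with BMP4 (0.026). The BMP4 call was lost without any 1 of NT replicates 1, 2 and 3 or BMP4 replicates 1 and 3 (0.0531 to 0.1). The TGFB2 call of Sertad1 was lost on omitting any of NT replicates 2 and 3 and TGFB2 replicates 1 and 2 (0.0541 to 0.0882).

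The sestrins Sesn1 and Sesn2, which restrain mTORC1, differed in sign. Sesn1 had 4.28, 5.41 and 5.20 CPM in BMP4-TGFB2 libraries, 4.19, 6.35 and 6.37 CPM in TGFB2, 5.73, 6.20 and 6.27 CPM in BMP4, and 8.49, 8.36 and 7.32 CPM in NT. Every treated library was under every NT library. It fell with both ligands by 0.70 on the log2 scale (SE 0.21; adjusted p = 0.0282), a call lost without NT replicate 1 or 2 or BMP4-TGFB2 replicate 1 or 3 (0.0532 to 0.0976), and without replicate 1 in every group (-0.56; 0.0635). With TGFB2 the value of Sesn1 was -0.52 ± 0.21 (0.097; 0.0375 with the replicate block and 0.296 without replicate 1 in every group). Sesn2 ranged from 66.3 to 94.8 CPM in the 6 libraries with TGFB2 and from 38.0 to 87.0 CPM in NT, with a TGFB2 value of 0.51 ± 0.31 (0.277; 0.0081 with the block). The polo-like kinase Plk2 was at 0.88 ± 0.33 (0.0799; 0.00062 with the block). Its relative Plk3, the antiproliferative Btg2 and the RNA-binding protein Zmat3 passed in no comparison with NT with every library, with TGFB2 values of 0.14, -0.03 and 0.33. Zmat3, with replicate 1 left out of every group, passed with TGFB2 (0.50; adjusted p = 0.0181) and with both ligands (0.46; 0.0214), and the TGFB2 value of Btg2 was 0.27 (0.251). In the same setting Sesn2 passed with TGFB2 at 0.84 (0.00234) and Plk2 at 1.09 (0.0143).

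Of the 5 repair genes 2 rose with TGFB2 (40%, where 11.3% of all tested genes rose). Xpc (ENSMUSG00000030094.8, chromosome 6, 91489305 to 91515888), the lesion sensor of nucleotide excision repair, had 37.6, 27.9 and 28.4 CPM in BMP4-TGFB2 libraries, 34.3, 25.7 and 29.5 CPM in TGFB2, 15.7, 15.8 and 15.3 CPM in BMP4, and 17.6, 10.3 and 11 CPM in NT. The libraries with TGFB2 were all above the others, and NT replicate 1 was above the BMP4 libraries. Its log2 differences from NT were 1.27 ± 0.21 with both ligands (adjusted p = 0.00118), 1.20 ± 0.21 with TGFB2 (0.00205) and 0.27 ± 0.21 with BMP4 (0.566). Polk, a translesion DNA polymerase, had 41.9, 46.7 and 52.5 CPM in BMP4-TGFB2 libraries, 49.7, 50.6 and 53 CPM in TGFB2, 50.1, 43.5 and 38.6 CPM in BMP4, and 46.1, 23.7 and 28 CPM in NT. The TGFB2 libraries lay above NT, and NT replicate 1 lay within the range of the other treated groups. Polk rose by 0.65 ± 0.21 with TGFB2 (0.0486), a call lost on leaving out any single library except NT replicate 1 (0.0553 to 0.171). Its TGFB2 value was 1.01 without replicate 1 in every group (0.00231). The ribonucleotide reductase subunit Rrm2b, the endonuclease Ercc5 and the uncertain Ddb2 did not pass, with TGFB2 values of 0.04, 0.31 and 0.03.

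Of the 3 spindle and G2/M genes 1 fell with TGFB2 (33.3%, where 11.1% of all tested genes fell). Psrc1 (ENSMUSG00000068744.12, chromosome 3, 108383839 to 108388231), a spindle protein, had 47.1, 54 and 41.5 CPM in BMP4-TGFB2 libraries, 49.3, 73.6 and 47.3 CPM in TGFB2, 81.5, 88.3 and 68.7 CPM in BMP4, and 108, 133 and 89.2 CPM in NT. NT was the highest group, without overlap with any treated group. The log2 fold changes were -1.21 ± 0.20 with both ligands (adjusted p = 0.00118), -0.96 ± 0.20 with TGFB2 (0.00585) and -0.47 ± 0.20 with BMP4 (0.228; 0.0113 with the replicate block). Without replicate 1 in every group the Psrc1 values were -0.87 with TGFB2 (0.0506) and -0.51 with BMP4 (0.333). Ckap2, a spindle microtubule protein, had 37.3, 95 and 93.8 CPM in BMP4-TGFB2 libraries, 48.5, 117 and 96.7 CPM in TGFB2, and 102, 82.8 and 106 CPM in NT. Gtse1, which binds microtubules and p53, had 47.2, 93.3 and 97.4 CPM in BMP4-TGFB2 libraries, 57.5, 111 and 95.2 CPM in TGFB2, and 107, 101 and 102 CPM in NT. Replicate 1 of both groups with TGFB2, the libraries low in mitotic genes, was far under its group in Ckap2 and Gtse1 alike, and neither gene passed (-0.15 ± 0.35 and -0.24 ± 0.27 with TGFB2; adjusted p = 0.801 and 0.576). The sign turned without replicate 1 in every group, to 0.19 for Ckap2 (adjusted p = 0.379) and 0.03 for Gtse1 (0.903).

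Of the 5 metabolism and transport genes 1 rose with TGFB2, while with both ligands 1 rose and 1 fell. These calls were 20% and 40% of the 5, where 22.4% and 26.2% of all tested genes passed. Slc19a2, a thiamine transporter, had 70, 57 and 61.5 CPM in BMP4-TGFB2 libraries, 76.8, 55.7 and 57 CPM in TGFB2, 48.7, 46.4 and 46.8 CPM in BMP4, and 45.6, 38.9 and 41.2 CPM in NT. The groups with TGFB2 were above BMP4, and BMP4 above NT, without overlap. It rose by 0.58 ± 0.14 with both ligands (adjusted p = 0.01) and by 0.59 ± 0.14 with TGFB2 (0.0109; 0.051 without NT replicate 2). Dcxr had 252, 208 and 186 CPM in BMP4-TGFB2 libraries, 273, 373 and 217 CPM in TGFB2, 529, 318 and 259 CPM in BMP4, and 492, 525 and 337 CPM in NT. The BMP4-TGFB2 libraries lay under every BMP4 and NT library and overlapped TGFB2, and the TGFB2 and NT ranges overlapped. It fell with both ligands by 1.07 on the log2 scale (SE 0.28; adjusted p = 0.0171), a call lost without NT replicate 2 or BMP4-TGFB2 replicate 2 or 3 (0.0537 to 0.0659). With TGFB2 the value of Dcxr was -0.65 ± 0.28 (0.123; 0.02 with the replicate block and 0.203 without replicate 1 in every group). Tigar, a sugar phosphatase that slows glycolysis, and the mitochondrial reductase Fdxr did not pass, with TGFB2 values of 0.24 and 0.06. The iron reductase Steap3, at 0.69 ± 0.59 (0.441), passed with the block (0.0383) and not without replicate 1 in every group (0.46; 0.508).

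Both surface and junction genes missed the threshold. Epha2, an ephrin receptor kinase, had 428, 328 and 453 CPM in BMP4-TGFB2 libraries, 397, 269 and 455 CPM in TGFB2, 393, 313 and 356 CPM in BMP4, and 299, 241 and 281 CPM in NT. Replicate 2 was lowest in each group, and only TGFB2 replicate 2 of the treated libraries lay within the NT range. Its log2 fold changes were 0.56 ± 0.19 with both ligands (adjusted p = 0.0539), 0.45 ± 0.19 with TGFB2 (0.122; 0.0115 with the replicate block) and 0.37 ± 0.19 with BMP4 (0.34; 0.0447 with the block). Without replicate 1 in every group the TGFB2 and BMP4 values of Epha2 were 0.48 (adjusted p = 0.213) and 0.35 (0.501). Ptpn14, a phosphatase that restrains YAP, was at -0.19 ± 0.22 with TGFB2 (0.574).

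Adding BMP4 to TGFB2 changed none of the 39 genes by edgeR's test. In BMP4-TGFB2 against TGFB2, 0 of the 39 and 0% of all tested genes passed, and 1 of the 39 and 516 of all genes had an unadjusted p under 0.05. DESeq2, limma voom and limma on TPM also called 0 of the 39, and over all genes they called 51, 0 and 1. Same-numbered libraries deviated together here (correlations 0.505 to 0.791). With the replicate block 0 of the 39 passed, where 0.0392% of all genes did. The smallest adjusted p of the 39 with the block was 0.465 (Dram1, -0.92). Without replicate 1 in every group 0 of all tested genes passed. The median absolute log2 fold change of the 39 was 0.0685, and 35 of the 39 were within 0.3 of 0. Dram1 was farthest from 0, at -0.92 ± 0.30 (adjusted p = 1), and every BMP4-TGFB2 library was under every TGFB2 library. Such a gap was seen in 2 of the 39 genes below and 0 above, where 3.53% and 3.24% of all tested genes showed it. Missing the threshold does not show that the levels were equal.

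Adding TGFB2 to BMP4 raised 4 of the 39 and lowered 1, where 9.22% of all tested genes passed, 4.24% rising and 4.98% falling. In BMP4-TGFB2 against BMP4, Ccng1 rose by 0.41 ± 0.10 (adjusted p = 0.0309), Dram1 by 1.27 ± 0.31 (0.0256), Gadd45a by 2.64 ± 0.54 (0.0115) and Xpc by 1.0 ± 0.21 (0.0126). Psrc1 fell by 0.74 on the log2 scale (SE 0.20; 0.0398). In each of these 5 genes the groups did not overlap, and the BMP4-TGFB2 libraries lay above BMP4 in 9 of the 39 genes and below it in 6 (13.9% and 14.4% of all tested genes). With the replicate block 10 rose and 3 fell, where 22.7% of all genes passed. The block added Mdm2 (0.55; adjusted p = 0.0458), Phlda3 (0.52; 0.00244), Slc19a2 (0.40; 0.0119), Aen (0.39; 0.0242), Sesn2 (0.43; 0.0477) and Bbc3 (0.55; 0.0296) to the rises, and Dcxr (-0.74; 0.0176) and the uncertain Ddb2 (-0.56; 0.0334) to the falls. Without replicate 1 in every group 7 rose (Bbc3, Mdm2, Sesn2, Xpc, Aen, Gadd45a and Phlda3), where 9.03% of all genes passed. The calls of Ccng1 (0.0843), Dram1 (0.0823) and Psrc1 (0.16) were lost in that setting. The 5 calls became 2 without BMP4 replicate 1, BMP4-TGFB2 replicate 1 or BMP4-TGFB2 replicate 3, where 5.68%, 5.56% and 5.47% of all genes passed. They became 3 without BMP4-TGFB2 replicate 2 (6.56% of all genes) and 0 without BMP4 replicate 2 (4.35%), where Gadd45a had an adjusted p of 0.0591 and Xpc of 0.0521.

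In BMP4 against TGFB2, 4 of the 39 genes were lower in BMP4 cells and none was higher, where 7.83% of all tested genes passed, 4.16% higher and 3.67% lower in BMP4. Ccng1 was lower by 0.46 (-0.46 ± 0.10; adjusted p = 0.0197), Xpc had -0.94 ± 0.21 (0.0192), Gadd45a -2.85 ± 0.55 (0.00893) and Dram1 -2.18 ± 0.31 (0.00195). The Dram1 libraries ranged from 1.62 to 2.63 CPM with BMP4 and from 7.02 to 11.7 CPM with TGFB2. With the replicate block 10 were lower and 1, Psrc1 (0.51; 0.00518), was higher, where 19.6% of all genes passed. The block added Bbc3, Mdm2, Sesn2, Aen, Slc19a2 and Phlda3 to the lower genes. Without replicate 1 in every group 6 were lower (Bbc3, Dram1, Mdm2, Sesn2, Xpc and Gadd45a), where 5.78% of all genes passed. The Ccng1 call was lost in that setting (0.0879). Dram1 and Gadd45a alone remained without TGFB2 replicate 1, BMP4 replicate 1 or BMP4 replicate 2, which gave 2 calls each, where 4.32%, 4.75% and 3.71% of all genes passed. Ccng1 was also lost without TGFB2 replicate 2 (0.0556), and Xpc without TGFB2 replicate 3 (0.0559) or BMP4 replicate 3 (0.0522).

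The interaction asked whether the BMP4-TGFB2 level departed from the sum of the single-ligand changes on the log2 scale. Among the 39 genes 0 passed in edgeR, where 0.157% of all tested genes passed, 0.0522% positive and 0.104% negative. An unadjusted p under 0.05 was seen in 3 of the 39 and in 1290 of the 15319 tested genes, a similar share. DESeq2 and both limma fits called 0 of the 39. Without replicate 1 in every group the smallest adjusted p of the 39 was 0.197 (Mdm2, -0.84), where 0.0392% of all genes passed. Values were negative for 34 of the 39, with a median of -0.22, against -0.02 over all tested genes.

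Replicate 1 of NT was the highest of the 3 NT libraries for 30 of the 39 genes (76.9%, against 41.4% of all tested genes). In BMP4 it led for 23 (59%, against 39.8%), in TGFB2 for 17 (43.6%, against 36.3%) and in BMP4-TGFB2 for 16 (41%, against 35.3%). The mean over the 39 genes, as log2(CPM + 1) minus the NT mean, was 0.37 to 0.46 in BMP4-TGFB2 libraries, 0.43 to 0.53 in TGFB2, 0.12 to 0.41 in BMP4 and -0.19 to 0.31 in NT. NT replicate 1, at 0.31, lay closer to the libraries with TGFB2 than to the other NT libraries. The mean over the 15 mitotic genes was -3.60 in replicate 1 of BMP4-TGFB2 and -2.83 in replicate 1 of TGFB2, where the p53 targets stood at 0.46 and 0.53. In edgeR 0 of these 15 passed with TGFB2, where 22.4% of all tested genes passed. None of the 15 had an unadjusted p under 0.05, and the proliferation marker Mki67 was at -1.48 (adjusted p = 0.232). All 15 had negative log2 fold changes with TGFB2 (median -0.81) and with both ligands (median -1.16). Of the 15319 tested genes 7557 and 7595 were negative in these comparisons. What set replicate 1 apart was not tested.

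**Figure D4:**
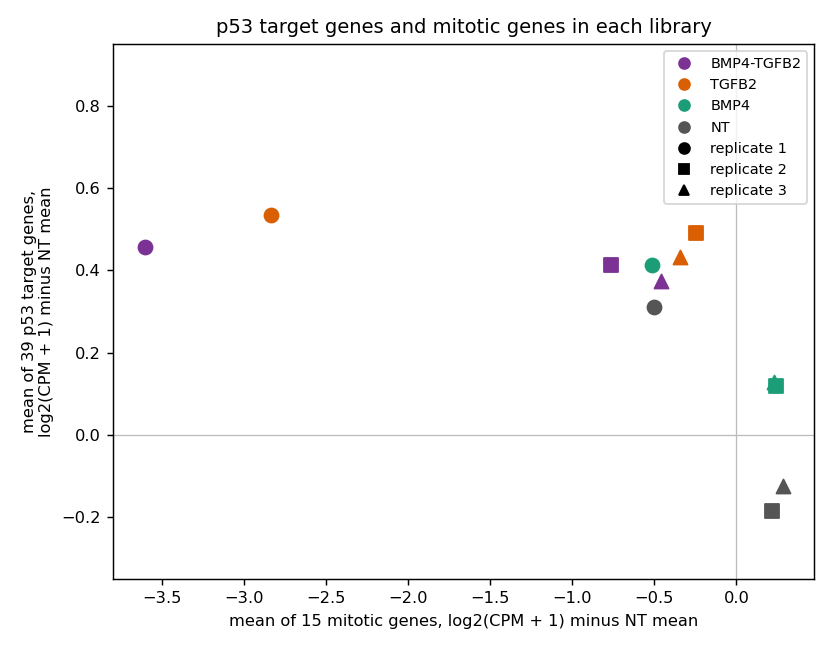
Mean over the 39 p53 target genes (vertical axis) against the mean over 15 mitotic genes (horizontal axis) in each library, both as log2(CPM + 1) minus the NT mean, with the group as colour and the replicate as marker. Replicate 1 of BMP4-TGFB2 and of TGFB2 lie far left at -3.60 and -2.83, and the 6 libraries with TGFB2 span only 0.37 to 0.53 on the vertical axis.

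Other genes of the pathway were read from 2 further lists. Of 25 other p53 targets 24 were tested, and 9 rose and 3 fell with TGFB2, 8 rose and 3 fell with both ligands, and 4 rose and 1 fell with BMP4. These calls were 50%, 45.8% and 20.8% of the 24, where 22.4%, 26.2% and 5.45% of all tested genes passed. The smallest p-values with TGFB2 were those of Tlr3, a sensor of double-stranded RNA, with a log2 fold change of -2.21, and of the adenylate kinase Ak1, with 1.61. Cdkn1a, the p21 inhibitor of cyclin-dependent kinases, had 757, 560 and 524 CPM in BMP4-TGFB2 libraries, 774, 548 and 476 CPM in TGFB2, 511, 341 and 298 CPM in BMP4, and 330, 156 and 177 CPM in NT. Every library with TGFB2 was above every NT library, and replicate 1 was highest in each group. Cdkn1a rose by 1.44 ± 0.31 with TGFB2 (adjusted p = 0.00694) and by 1.48 ± 0.31 with both ligands (0.00513). Of 29 regulators of p53 27 were tested, and 1 rose and 4 fell with TGFB2 (18.5%, against 22.4% of all tested genes). Ppp1r13l, the p53 inhibitor iASPP, rose by 1.63, its relative Ppp1r13b fell by 1.21, and the DNA damage kinase Atm fell by 1.09 on the log2 scale.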

How the data were processed

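Poly(A) RNA of 12 libraries, 3 per group, was sequenced. The authors deposited gene-level estimated counts and TPM, with 1 column per library and Salmon in the titles of both tables. The tools named are Salmon 1.2.1, STAR 2.7.5b and bcl2fastq 2.17, with the build GRCm38.p6, per the submitters' processing notes, which give no settings. Per the deposited metadata the library type was unstranded in all libraries, in 1 batch. Of the estimated counts, 82.9% were whole, and all were rounded here.

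Genes were filtered with filterByExpr (minimum count 10), scaled by TMM (0.971 to 1.03), and tested in R 4.3.3 with edgeR 4.0.16 (quasi-likelihood), all 12 libraries in 1 model by group. P-values were adjusted by Benjamini-Hochberg over 15319 genes, and a gene passed under 0.05. The common biological coefficient of variation was 0.299. CPM used library totals times TMM factors. No libraries agreed within sampling noise (lowest chi-square per degree of freedom 32). The fit was tested on simulated data.

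The members, lists and tests were chosen with earlier results of these data known. By rule, values in every library are given for Trp53, Mdm2, Ccng1, members that passed against NT (up to 16) and at least 1 member per role, and other lists name the 3 genes of smallest p with TGFB2, of which 1 is not reported here. Pmaip1, Ckap2, Gtse1, Steap3 and Cdkn1a were added after their values were seen. Replicate numbers are shared by the groups in the labels. After subtracting group means, libraries with the same number correlated above 0.1 for all 3 pairs in 5 of the 6 pairwise comparisons (0.152 to 0.791) and not in BMP4-TGFB2 against NT (0.018 to 0.344). Alternatives were RLE scaling, DESeq2 1.42.0, limma 3.58.1 on counts (voom) and on log2(TPM + 1), no filter, the replicate block, only the compared groups, and leaving out libraries. Positions are from GENCODE M21, where 38 of the 39 identifiers had the same version (Ei24 another), and promoter letters are from RefSeq.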

Additional observations from a re-analysis of the deposited data

How the results depend on the processing

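Over 41 gene results and 20 alternatives each, 709 of 820 values kept their direction and side of the threshold, 109 lost it, 2 gained it and 0 reversed. These 41 were the edgeR calls with every library, plus Trp53 against NT and Mdm2 in BMP4 against NT. Only the added results could gain a call, so genes that newly passed under an alternative are not counted here. Mdm2, Ccng1, Fas, Phlda3, Gadd45a and Xpc passed under all 20 alternatives with TGFB2 and with both ligands. Polk with TGFB2 missed the threshold in 14 and Aen with both ligands in 13. The replicate block gave 25 calls among the 39 genes in TGFB2 against NT, where 37.8% of all genes passed. It gave 8 in BMP4 against NT (15.4% of all genes) and 24 in BMP4-TGFB2 against NT (41.4%). In BMP4-TGFB2 against BMP4 it gave 13 (22.7%) and in BMP4 against TGFB2 11 (19.6%). The interaction had 1 (Phlda3, -0.66, adjusted p = 0.0336), where 1.83% of all genes passed. The block changed no call among the 39 in BMP4-TGFB2 against TGFB2. In BMP4-TGFB2 against NT the same-numbered libraries correlated at 0.344, 0.018 and 0.342 for replicates 1, 2 and 3. Unlike numbers gave -0.354 to 0.158. Replicate 2 was thus under the 0.1 asked of all pairs, and the block count is given only here. BMP4 against NT gave 4 calls with DESeq2 (10.2% of all genes) and 5 without replicate 1 (4.41%). With no filter it gave 3, where 1088 calls were made over all genes with any count. BMP4-TGFB2 against BMP4 gave 3 with limma on TPM and 3 with only the compared groups, where 6.95% and 5.97% of all genes passed.

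Leaving out single libraries gave 7 to 20 calls in TGFB2 against NT, 0 to 3 in BMP4 against NT, 9 to 19 in BMP4-TGFB2 against NT, 0 to 6 in BMP4-TGFB2 against BMP4, 2 to 5 in BMP4 against TGFB2, and 0 throughout in BMP4-TGFB2 against TGFB2 and in the interaction. Over all genes the block gave 5798 calls against 3424 in TGFB2 against NT, 2356 against 835 in BMP4 against NT, 6342 against 4007 in BMP4-TGFB2 against NT, 6 against 0 in BMP4-TGFB2 against TGFB2, 3476 against 1412 in BMP4-TGFB2 against BMP4, 2998 against 1200 in BMP4 against TGFB2 and 280 against 24 in the interaction. DESeq2 gave 1569 in BMP4 against NT, 51 in BMP4-TGFB2 against TGFB2, 2219 in BMP4-TGFB2 against BMP4, 1977 in BMP4 against TGFB2 and 298 in the interaction. No filter gave 23 in BMP4-TGFB2 against TGFB2 and 173 in the interaction. In the interaction voom gave 12, and leaving out replicate 1 gave 6. Limma on TPM gave 1 in BMP4-TGFB2 against TGFB2. Only the compared groups gave 527 in BMP4 against NT and 915 in BMP4-TGFB2 against BMP4. The causes were not tested. With 3 libraries per group and low counts in Dram1, Sesn1, Eda2r, Tigar and Ddb2, small changes may be missed.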

Other observations

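In 12 of the 39 genes (30.8%, against 12.4% of all tested genes) replicate 1 was the highest library in all 4 groups. These were Bbc3, Bax, Plk2, Steap3, Trp53inp1, Plk3, Sesn2, Triap1, Aen, Gadd45a, Slc19a2 and Phlda3. Steap3 had 45.6, 28.3 and 12.8 CPM in BMP4-TGFB2 libraries, 49.7, 25.9 and 15.7 CPM in TGFB2, 53.4, 25.3 and 11.7 CPM in BMP4, and 26.3, 17 and 13.4 CPM in NT. Replicate 1 was its highest library and replicate 3 its lowest in each group, and without the replicate block it passed in no comparison of edgeR. Eda2r was highest in replicate 3 of every group, at 15.8 CPM in BMP4-TGFB2, 15.5 CPM in TGFB2, 11.3 CPM in BMP4 and 6.51 CPM in NT. The labels do not say what a replicate number marks.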
